A study of Gallus gallus with 6 samples.

Results

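The genes described are 9 of the 25619 rows of a chick (Gallus gallus) expression table, chosen by gene name. They are the Notch receptor genes NOTCH1 and NOTCH2, the Delta ligand genes DLL1 and DLL4, the Jagged ligand genes JAG1 and JAG2, and the fringe genes LFNG, MFNG and RFNG. RNA-seq was made from the basilar papilla, the auditory epithelium of birds, in cochlear ducts explanted from chicks at post-hatch day 1 and labelled day 3. The epithelium of all 6 libraries was freed from the duct with thermolysin, a protease, at 500 µg/ml. The SM plus BQ788 libraries (n = 3) received streptomycin (SM), an antibiotic that kills hair cells, for 48 h and then BQ788, an inhibitor of the endothelin receptor EDNRB. The SM control libraries (n = 3) received SM alone, so every library had been exposed to SM, and no library came from undamaged tissue. The labels do not say whether replicates came from separate chicks or cultures, and the tests here therefore speak only to the variation seen among these libraries, which may be technical.

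Notch receptors sit in the membrane and are cleaved when a Delta or Jagged ligand on a neighbouring cell binds them. The freed intracellular part joins the DNA-binding protein RBPJ in the nucleus and activates repressor genes of the HES and HEY families. Fringes are Golgi enzymes that lengthen the O-linked fucose on the receptor, which generally favours the response to Delta over that to Jagged ligands. In the ear, Delta and JAG2 on nascent hair cells and NOTCH1 on their neighbours hold those neighbours back from the hair cell fate, while JAG1 and LFNG are known from supporting cells and their precursors.

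Values are FPKM, a read or fragment number corrected for the length of the gene and the size of the library, as the authors deposited it. Reads recovered from them came to between 15438305 and 17375656 per library. On the tissue label, 13 of 13 supporting cell markers and 11 of 12 hair cell markers averaged at least 1 FPKM. The hair cell markers summed to 286.1 to 316.2 FPKM with BQ788, against 343.5 to 362.2 FPKM in SM controls, with ATOH1 the largest contributor, and the groups did not overlap, though 0 of the 11 tested markers passed a limma adjusted p of 0.05. Of 14 endothelial markers 4 averaged at least 1 FPKM, and of 12 blood and macrophage markers 7 did, with HBAD and HBE1 at 0 in every library. The fibroblast and mesenchyme markers summed to 352.5, 139.7 and 181.0 FPKM in BQ788 replicates 1, 2 and 3, against 305.4, 264.1 and 231.9 FPKM in SM control replicates 1, 2 and 3, so BQ788 replicate 1 stood apart from its group. Melanocyte markers summed to 8.69 to 11.9 FPKM with BQ788, against 19.3 to 21.2 FPKM in SM controls, and pericyte and smooth muscle markers to 17.1 to 22.0 FPKM with BQ788, against 22.7 to 26.5 FPKM in SM controls, both without overlap. The lower melanocyte sum came from SLC45A2, OCA2 and MLANA. MITF was higher without overlap (mean 1.32 FPKM with BQ788, against 1.15 FPKM in SM controls), and PMEL overlapped. The pigment genes TYR, TYRP1 and DCT reached at most 0.256 FPKM in any library. The Schwann cell and neuron sums (154.6 to 212.6 FPKM with BQ788, against 195.2 to 218.6 FPKM in SM controls) overlapped, as did the cartilage sums (142.7 to 204.2 FPKM with BQ788, against 170.3 to 195.0 FPKM in SM controls) and the macrophage and blood sums (77.0 to 93.7 FPKM with BQ788, against 76.4 to 91.6 FPKM in SM controls). Over the 9 marker lists, the genes that passed the limma threshold all fell. Named by list, they were FGFR3 (supporting cell), POSTN (mesenchyme), GAP43, NEFM and NEFL (Schwann cell and neuron), SLC45A2 (melanocyte), and COL9A1 and COL9A2 (cartilage). Of all genes tested 2.99% passed, 2.24% lower with BQ788. These single genes do not speak for their lists. The mesenchyme list had a median log2 fold change of 0.05. CHAD, the most abundant gene of the cartilage list, averaged 80.3 FPKM with BQ788, against 38.5 FPKM in SM controls, with overlap. In the same list ACAN, MATN1, HAPLN1 and SNORC reached at most 0.787 FPKM in any library. Whether the cartilage list marks cartilage cells in these libraries was not tested. The part of these cell types in the members' levels was not tested. In these bulk samples, fewer cells of a type and less RNA per cell cannot be told apart.

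Of the 9 genes, 8 averaged at least 1 FPKM over the 6 libraries and were tested with limma. With BQ788, LFNG, JAG1 and NOTCH2 were the members with the smallest p, all higher, but no member passed a limma adjusted p of 0.05, and limma voom on the recovered reads also called 0. Of all 11857 genes tested, 2.99% passed in limma (0.751% higher and 2.24% lower with BQ788) and 3.12% in limma voom. At an unadjusted p of 0.05, 3 members passed, all higher, against 22.7% of all genes tested (10.8% higher and 11.9% lower). The groups did not overlap in 3 members, LFNG, NOTCH2 and RFNG, all higher, against 29.3% of all genes (15.2% higher and 14.1% lower). The 8 log2 fold changes had a median of 0.06, against 0.02 for all genes, with 4 above and 4 below 0. Fold changes below were computed as BQ788 minus control on log2(FPKM + 1) values, a scale that understates the change of low genes.

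**Figure D1:**
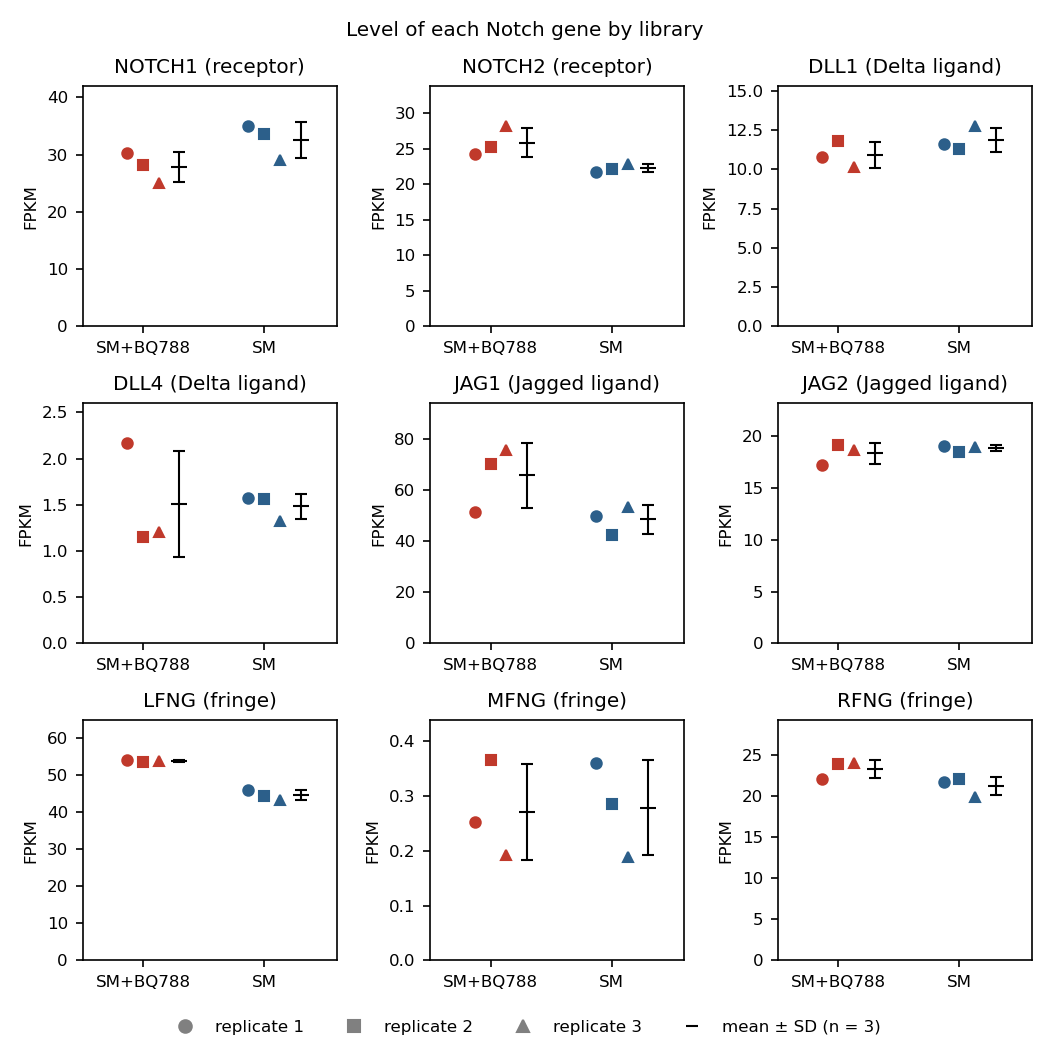
FPKM (y axis, starting at 0) of each of the 9 genes in the libraries given SM and BQ788 and in the SM controls. Each point is a library with its replicate number as a symbol, and the bars show mean ± SD. The 3 BQ788 points of LFNG, between 53.4 and 54.0 FPKM, sit above the SM points, between 43.3 and 46.1 FPKM, while MFNG stays below 0.4 FPKM in every library.

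The receptor genes were both expressed, with the BQ788 mean of NOTCH1 below that of the controls and the mean of NOTCH2 above it, though neither passed the test. NOTCH1 (chromosome 17, 8415416 to 8451054 on GRCg7b, plus strand) encodes the receptor best known from lateral inhibition in the ear. It was at 30.2, 28.2 and 25.0 FPKM with BQ788, against 35.0, 33.5 and 29.0 FPKM in SM controls. The groups overlapped, because BQ788 replicate 1 lay above SM control replicate 3. At each replicate number the BQ788 library lay below the SM control library. The log2 fold change of NOTCH1 was -0.22 (SE 0.10, limma adjusted p = 0.249). With the replicate number as a block the SE was 0.05 and the limma adjusted p 0.0758. Whether equal numbers are pairs is not known.

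NOTCH2 (chromosome 8, 4165167 to 4244193, plus strand) encodes a second receptor of the same family. It was at 24.2, 25.2 and 28.2 FPKM with BQ788, against 21.8, 22.2 and 22.9 FPKM in SM controls. Every BQ788 library was above every SM control, and BQ788 replicate 3 was the highest. The log2 fold change was 0.20 (SE 0.07, limma adjusted p = 0.160).

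The balance between the receptors was read within each library, where scaling between libraries cancels. The ratio of NOTCH1 to NOTCH2 was 1.25, 1.12 and 0.889 with BQ788, against 1.61, 1.51 and 1.27 in SM controls. The groups did not overlap, by a narrow margin between BQ788 replicate 1 and SM control replicate 3, and in BQ788 replicate 3 NOTCH2 exceeded NOTCH1. NOTCH1 made up 51.8 ± 4.32% of the summed receptor FPKM with BQ788 and 59.3 ± 2.99% in SM controls (SD, n = 3 each). The sum of both receptor genes was close in the groups, at 53.2 to 54.4 FPKM with BQ788 and 51.8 to 56.7 FPKM in SM controls, and these ranges overlapped. The deposited values held no gene under the names NOTCH3 or NOTCH4, so the receptor sum covers NOTCH1 and NOTCH2 only.

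Of the ligand genes, JAG1 was the most abundant and the one with the largest difference. JAG1 (chromosome 3, 13191920 to 13227987, plus strand) encodes a ligand that marks prosensory and supporting cells. It was at 51.4, 70.2 and 75.4 FPKM in BQ788 replicates 1, 2 and 3, against 49.8, 42.3 and 53.4 FPKM in SM controls. BQ788 replicates 2 and 3 lay above all controls, and BQ788 replicate 1 lay within them, so the groups overlapped. Over all libraries the log2 fold change was 0.42 (SE 0.16, 95% interval 0.04 to 0.80, limma adjusted p = 0.187).

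The call on JAG1 turned on BQ788 replicate 1, the library with the highest mesenchymal sum. Without that library the log2 fold change of JAG1 was 0.58 (SE 0.11, limma adjusted p = 0.0324, with 1311 calls over all genes in that fit). Leaving out any other single library gave adjusted p-values from 0.251 to 0.431. SM control replicate 1 had the highest mesenchymal sum of the controls, 305.4 FPKM. Without replicate 1 of both groups, an omission chosen after seeing the data, the log2 fold change of JAG1 was 0.60 (limma adjusted p = 0.0855). BQ788 replicate 1 also had the lowest summed level of supporting cell markers, since these were at 1560, 1916 and 2199 FPKM with BQ788, against 1824, 1859 and 2227 FPKM in SM controls, with the connexin gene GJB6 the largest contributor. GJB6 itself was at 756, 1075 and 1219 FPKM with BQ788, against 840, 886 and 1092 FPKM in SM controls. TECTA, the next most abundant gene of the list, was at 283, 259 and 317 FPKM with BQ788, against 409, 396 and 521 FPKM in SM controls. The part of each gene in the low sum was not tested. Single markers went both ways in BQ788 replicate 1. SOX2, HES5 and LGR5 were higher there than in any other library. FGFR3, OTOG, OTOGL, GJB6, PROX1, CDKN1B and ZBTB20 were lower there than in any other. The part of these markers in the JAG1 level was not tested.

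JAG2 (chromosome 5, 51624172 to 51685871, minus strand) encodes the Jagged ligand of nascent hair cells. It was at 17.2, 19.1 and 18.7 FPKM with BQ788, against 19.1, 18.5 and 19.0 FPKM in SM controls. The groups overlapped, with a log2 fold change of -0.04 (SE 0.06, 95% interval -0.19 to 0.11, limma adjusted p = 0.750).

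DLL1 (chromosome 3, 40510855 to 40522846, plus strand) encodes the Delta ligand that nascent hair cells present to their neighbours. It was at 10.8, 11.8 and 10.1 FPKM with BQ788, against 11.6, 11.3 and 12.7 FPKM in SM controls. BQ788 replicate 2 lay within the control range and the other BQ788 libraries below it. The log2 fold change was -0.12 (SE 0.08, limma adjusted p = 0.434). Beside it stood the lower sum of hair cell markers with BQ788 given above, whose part in the DLL1 level was not tested.

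DLL4 (chromosome 5, 23929187 to 23940408, plus strand) encodes a Delta ligand known from sprouting vessels as well as from neural and sensory tissue. It was the least abundant of the tested members, at 2.17, 1.15 and 1.21 FPKM in BQ788 replicates 1, 2 and 3, against 1.57, 1.56 and 1.32 FPKM in SM controls. BQ788 replicate 1 was the highest of all libraries and the other BQ788 libraries were the lowest. The log2 fold change was -0.01 (SE 0.17, 95% interval -0.40 to 0.39, limma adjusted p = 0.986), and without BQ788 replicate 1 it was -0.19 (limma adjusted p = 0.261).

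Of the 14 endothelial markers, the groups overlapped in 10, and 2 were higher and 2 lower with BQ788 without overlap. Over all genes tested, the groups did not overlap in 29.3% (15.2% higher and 14.1% lower), a near share. Only 4 of these markers were high enough to be among the genes tested. PECAM1, an adhesion molecule of vessels, was at 6.55 to 8.76 FPKM with BQ788, against 10.2 to 10.8 FPKM in SM controls (limma adjusted p = 0.0801), and EGFL7 was also lower. CDH5 and VWF were higher without overlap, and were too low to test. KDR, a receptor for vascular growth factor, was at 2.12, 0.795 and 0.642 FPKM in BQ788 replicates 1, 2 and 3, against 1.27, 0.647 and 0.523 FPKM in SM controls. The whole endothelial list summed to 39.8, 31.7 and 30.2 FPKM with BQ788, against 38.9, 43.0 and 38.7 FPKM in SM controls, with EGFL7 the most abundant gene. CDH5, TEK, TIE1, VWF and SOX17 all stayed below 0.6 FPKM everywhere. The part of vessel cells in the DLL4 level was not tested.

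The within-library ratios of JAG1 to JAG2 and to DLL1 were higher in all 3 BQ788 libraries. The ratio of JAG1 to JAG2 was 2.98, 3.68 and 4.04 with BQ788, against 2.61, 2.28 and 2.82 in SM controls, and the groups did not overlap. The ratio of JAG1 to DLL1 was 4.77, 5.96 and 7.43 with BQ788, against 4.30, 3.74 and 4.19 in SM controls, again without overlap. BQ788 replicate 1 was the lowest of its group in both ratios yet stayed above every SM control. JAG1 accounted for 63.0%, 68.7% and 71.5% of the summed ligand FPKM with BQ788, against 60.7%, 57.4% and 61.8% in SM controls. DLL1 accounted for 13.2%, 11.5% and 9.62% with BQ788, against 14.1%, 15.4% and 14.7% in SM controls.

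**Figure D2:**
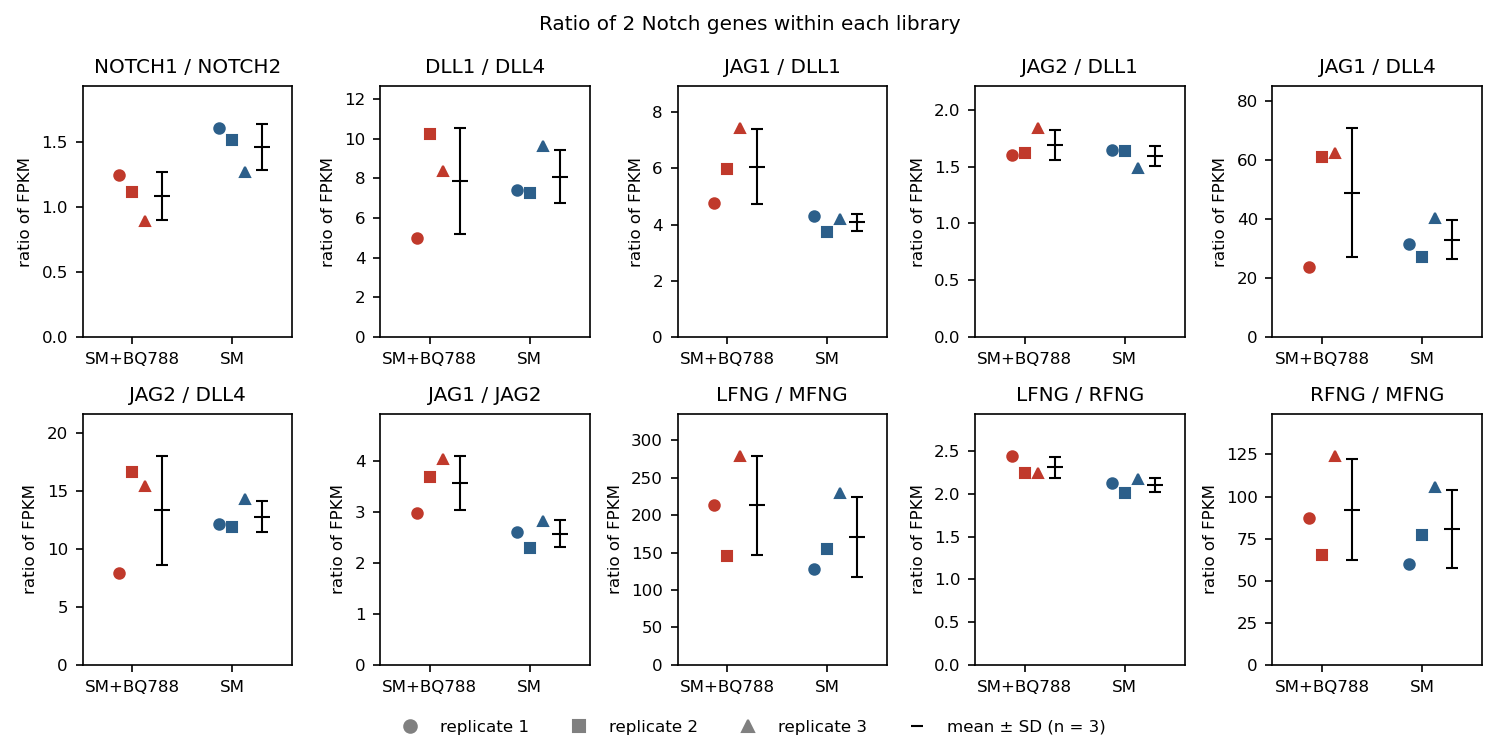
Ratio of the FPKM of 2 genes within each library (y axis, starting at 0) for all 10 pairs within receptors, ligands and fringes, with SM plus BQ788 on the left and SM controls on the right. Points are libraries and bars are mean ± SD. The groups do not overlap for NOTCH1 to NOTCH2, JAG1 to DLL1, JAG1 to JAG2 and LFNG to RFNG, and they overlap for the other pairs.

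Of the 10 pairs within a family, 4 had groups that did not overlap, and 3 of the other 6 pairs included DLL4 and 2 included MFNG. These genes had the fewest reads, but DLL4 with BQ788 varied by 37.9% between libraries against a counting error of 9.41%. The part of read number in these overlaps was not tested. The share of pairs without overlap over all genes was not computed, so the count of 4 has no background beside it. Taken singly, 29.3% of all genes tested had groups that did not overlap. The pairs are not independent, since most genes enter several, and the ratios are given as a description with no test.

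The fringe genes gave the member with the smallest p. LFNG (chromosome 14, 3230059 to 3240435, plus strand) encodes lunatic fringe, which modifies Notch receptors in supporting cells and in prosensory patches. It was at 54.0, 53.4 and 53.8 FPKM with BQ788, against 46.1, 44.3 and 43.3 FPKM in SM controls. The groups were set apart by 7.33 FPKM, the distance from the lowest BQ788 library to the highest SM control. LFNG averaged 53.7 ± 0.289 FPKM with BQ788 and 44.5 ± 1.41 FPKM in SM controls (SD, n = 3 each), a ratio of means of 1.21.

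The log2 fold change of LFNG was 0.27 (SE 0.05, 95% interval 0.14 to 0.39), and its limma adjusted p of 0.0516 lay just above the threshold. The call changed side with the genes tested, since the limma adjusted p was 0.0484 when only genes averaging 5 FPKM or more were tested. With other scalings of the 6 libraries the limma adjusted p was higher, at 0.0887 under quantile normalization and 0.114 with plain totals of recovered reads. In limma voom the adjusted p was 0.0602, and in limma without the eBayes trend 0.0749. The limma adjusted p was 0.0399 without BQ788 replicate 1, and from 0.128 to 0.193 without any other single library. The fold change itself stayed between 0.25 and 0.29 when any 1 library was left out.

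RFNG (chromosome 18, 5601393 to 5609056, plus strand) encodes radical fringe. It was at 22.0, 23.8 and 23.9 FPKM with BQ788, against 21.7, 22.0 and 19.9 FPKM in SM controls. The groups were apart by 0.00736 FPKM between BQ788 replicate 1 and SM control replicate 2, less than the counting error of either. The log2 fold change was 0.13 (SE 0.07, limma adjusted p = 0.302).

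The ratio of LFNG to RFNG was 2.45, 2.24 and 2.25 with BQ788, against 2.12, 2.01 and 2.17 in SM controls, so LFNG was the higher relative to RFNG in every BQ788 library. The 3 fringe genes together came to 76.2, 77.6 and 77.9 FPKM with BQ788, against 68.1, 66.6 and 63.4 FPKM in SM controls, and these sums did not overlap.

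MFNG (chromosome 1, 51295619 to 51309613, plus strand) encodes manic fringe. It was at 0.253, 0.366 and 0.193 FPKM with BQ788, against 0.361, 0.286 and 0.188 FPKM in SM controls. These values rest on 21, 29 and 14 recovered reads with BQ788, against 30, 21 and 14 in SM controls, and 3 reads of this gene are worth 0.0361 to 0.0413 FPKM over the 6 libraries. For the 14 reads of BQ788 replicate 3 the exact Poisson 95% interval ran from 0.105 to 0.323 FPKM, which covers counting error only. The means were 0.270 FPKM with BQ788 and 0.278 FPKM in SM controls, and the groups overlapped. MFNG averaged under 1 FPKM and was left out of the limma fit. How small a difference these reads could show was not assessed.

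**Figure D3:**
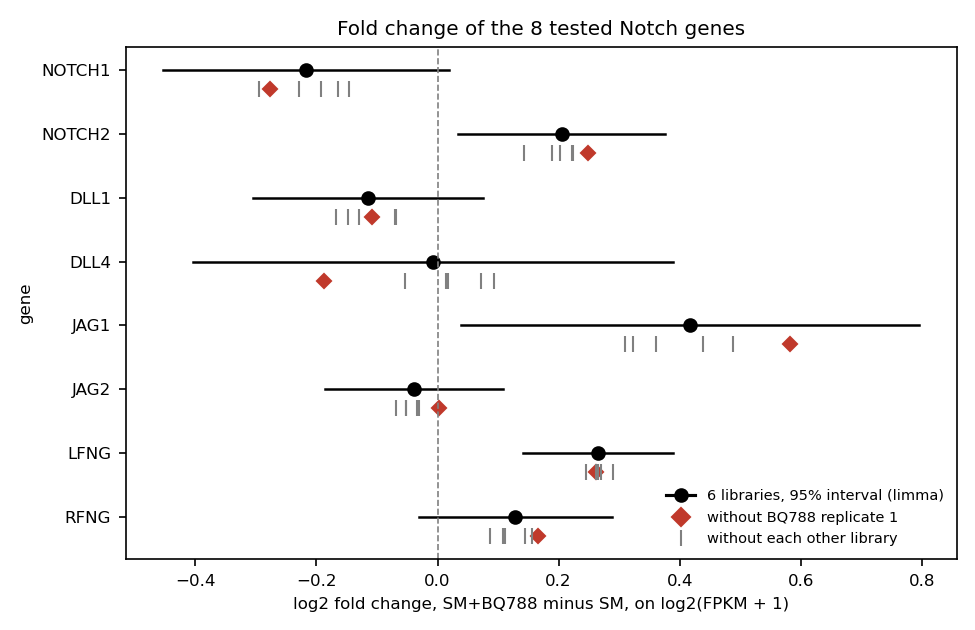
Log2 fold change of the 8 tested genes (x axis, BQ788 libraries minus controls, from log2(FPKM + 1) values). Black points and lines are the estimate from all 6 libraries with its 95% limma interval, red diamonds the estimate without BQ788 replicate 1, and grey ticks the estimates without each other library. The estimates of LFNG stay between 0.25 and 0.29, while that of JAG1 reaches 0.58 without BQ788 replicate 1.

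As a check that uses the libraries alone, an exact two-sided permutation test was run on each of the 9 genes. With 3 against 3 libraries the smallest p it allows is 0.1, which LFNG, NOTCH2 and RFNG reached, and after Benjamini-Hochberg adjustment over the 9 genes these 3 stood at 0.3. NOTCH1 and JAG1 gave an exact permutation p of 0.2, and the other genes 0.3 or more.

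The spread between replicates was set beside the counting error of the recovered reads, as a description with no test. It was below the counting error in 3 of 18 values, 1 with BQ788 (LFNG) and 2 in SM controls (DLL4 and JAG2). LFNG had 2641, 2494 and 2301 recovered reads with BQ788, against 2253, 1916 and 1896 in SM controls. The counting error of 1 library was 2.01% of the mean with BQ788, and the SD between the BQ788 libraries was 0.539% of the mean. These SDs hold for the deposited scale. Its library sizes were 1.06, 0.992 and 0.948 times the recovered reads in BQ788 replicates 1, 2 and 3. With plain totals of recovered reads the limma SE of the LFNG fold change was 0.07, against 0.05. The SD of each group was not computed on that scale. In SM controls the counting error of LFNG was 2.22% and the SD 3.16%. JAG1 was the opposite case, with an SD of 19.3% with BQ788 and 11.8% in SM controls against counting errors of 1.22% and 1.43%. NOTCH1 varied by 9.35% with BQ788 and by 9.60% in SM controls, also well above its counting errors of 1.47% and 1.37%.

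**Figure D4:**
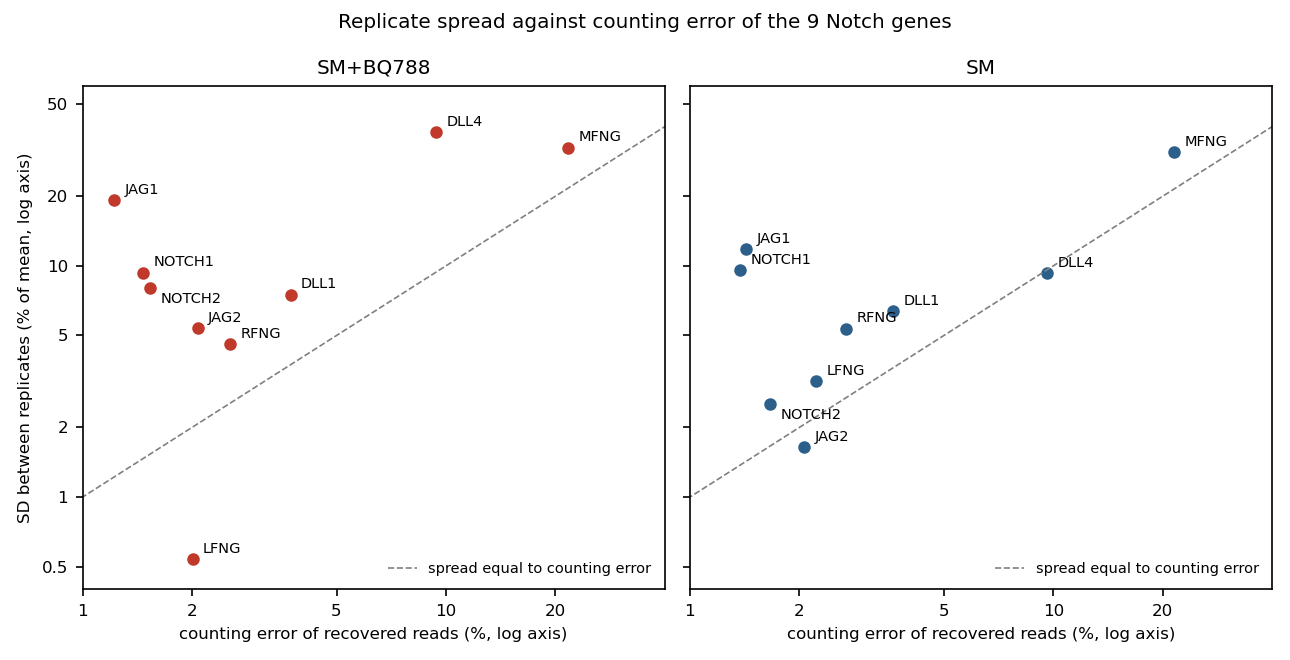
SD between the 3 libraries of a group as a percent of the mean (y axis, log) against the counting error of the recovered reads in percent (x axis, log) for the 9 genes, with SM plus BQ788 on the left and SM on the right. The dashed line marks a spread equal to counting error. On the deposited FPKM scale, LFNG with BQ788 lies below the line at 0.539%, and JAG1 with BQ788 lies far above it at 19.3%.

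Because FPKM is scaled to gene length, the members' levels can be ordered. By group mean the order was the same in both groups, JAG1, LFNG, NOTCH1, NOTCH2, RFNG, JAG2, DLL1, DLL4 and MFNG. With BQ788 the ranges of JAG1 and LFNG overlapped, as did those of NOTCH1 and NOTCH2, while the other neighbours were separate. In SM controls the overlapping neighbours were JAG1 with LFNG and NOTCH2 with RFNG. Among all genes tested, ranked by mean level, JAG1 stood at percentile 91.5, LFNG at 89.7 and DLL4 at 6.60.

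The genes whose levels followed the members most closely over the 6 libraries were listed by Pearson r of log2(FPKM + 1), as a description with no p. With 11857 genes and 6 libraries, values near 1 arise for many genes. For LFNG these were ABCC13 (r = 0.995), GMFB (0.994) and NDUFS1 (0.993). For JAG1 they were PPIH (0.996), TBCK (0.996) and CCSER2 (0.995), and for NOTCH2 TTK (0.995), ADPRH (0.995) and EXOC2 (0.995). Among the members themselves, the pairs with r furthest from 0 over the 6 libraries were picked out. NOTCH1 and NOTCH2 had r = -0.93, NOTCH2 and JAG1 0.89, NOTCH1 and JAG1 -0.87, and DLL4 and JAG2 -0.85. All other member pairs were nearer 0, with JAG2 and RFNG at 0.0015. All these r values pool both groups, so differences between the groups enter them. Differences in makeup between libraries, seen in the marker sums above, enter them too.

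Around these genes, the rest of the pathway was described from 6 lists of 106 genes, of which 93 were in the table and 85 were tested. Of the 85, 0 rose and 3 fell at a limma adjusted p of 0.05, which is 3.53%, against 2.99% of all genes tested. In limma voom 4 of the 85 passed. Of the 85 log2 fold changes 28 were above 0 and 57 below, with a median of -0.08, against 6347 above and 5510 below 0 and a median of 0.02 over all genes. Without BQ788 replicate 1 all 3 calls held and 8 genes passed, and without any other single library 0 passed. The fold changes kept their direction in each of these fits, at -0.64 to -0.55 for ID1, -0.68 to -0.53 for ID3 and -0.89 to -0.70 for NHLH1.

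Among 14 tested genes that process the receptors and ligands, 0 passed in limma or limma voom. A limma unadjusted p under 0.05 was found for 6 (42.9%), against 22.7% of all genes tested. POFUT1, which adds the O-fucose that fringes extend, was at 21.2 ± 0.231 FPKM with BQ788 and 23.9 ± 0.549 FPKM in SM controls (SD, n = 3 each, log2 fold change -0.17, limma adjusted p = 0.129). GXYLT2, which adds xylose to O-glucose on the receptor, was at 7.91 ± 0.319 FPKM with BQ788 and 6.76 ± 0.151 FPKM in SM controls (limma adjusted p = 0.135). The sheddase gene ADAM10 was at 22.1, 21.9 and 19.7 FPKM with BQ788, against 23.1, 23.5 and 23.0 FPKM in SM controls.

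Among 16 tested genes for endocytosis, ubiquitination and trafficking 0 passed in limma or limma voom. A limma unadjusted p under 0.05 was found for 2 (12.5%), against 22.7% of all genes tested. DTX3L, a relative of the Notch regulator Deltex, was at 2.55, 2.62 and 1.85 FPKM with BQ788, against 4.36, 4.15 and 3.21 FPKM in SM controls (log2 fold change -0.55, limma adjusted p = 0.0881). RAB11A, a recycling endosome GTPase, was at 68.3, 80.1 and 87.7 FPKM with BQ788, against 57.8, 61.0 and 62.3 FPKM in SM controls (log2 fold change 0.37, limma adjusted p = 0.0950). The limma adjusted p of RAB11A was 0.0430 under quantile normalization and 0.0233 without BQ788 replicate 1. It was 0.142 with no filter on low genes and from 0.179 to 0.271 without any other single library. MIB1, the ubiquitin ligase that drives uptake of ligands, was at 23.6, 23.5 and 21.0 FPKM with BQ788, against 24.5, 22.4 and 21.6 FPKM in SM controls, and the groups overlapped.

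Among 22 tested genes of the nuclear complex and its co-repressors 0 passed in limma or limma voom. A limma unadjusted p under 0.05 was found for 5 (22.7%), the same as the 22.7% of all genes tested. TLE3, a Groucho-type co-repressor, was at 7.78, 7.43 and 9.73 FPKM with BQ788, against 11.7, 11.4 and 12.4 FPKM in SM controls (log2 fold change -0.47, limma adjusted p = 0.0675). HDAC1, a histone deacetylase, was at 52.6 ± 2.53 FPKM with BQ788 and 60.3 ± 3.93 FPKM in SM controls (limma adjusted p = 0.174). RBPJ, the DNA-binding partner of the receptor, was at 2.54, 2.71 and 2.27 FPKM with BQ788, against 2.85, 2.74 and 2.49 FPKM in SM controls, and the groups overlapped.

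Of 16 tested target genes 2 fell, ID1 and ID3, which are better known as targets of BMP signals. The 2 are 12.5% of the list, against 2.99% of all genes tested. In that list 4 had a limma unadjusted p under 0.05 (25%, against 22.7% of all genes), and 2 passed in limma voom. ID1 fell to 57.7 ± 3.96 FPKM with BQ788, against 88.1 ± 3.74 FPKM in SM controls, and ID3 fell to 404.6 ± 47.9 FPKM with BQ788, against 605.8 ± 12.6 FPKM in SM controls (limma adjusted p = 0.0242 and 0.0361). The call on ID3 was lost under quantile normalization (limma adjusted p = 0.0527) and with no filter on low genes (0.0720). The effector genes proper did not pass. HEY1, the most abundant of them, was at 307.5, 352.2 and 389.8 FPKM with BQ788, against 330.4, 334.4 and 367.0 FPKM in SM controls. HES5, a supporting cell effector, was at 16.1, 3.93 and 1.90 FPKM in BQ788 replicates 1, 2 and 3, against 9.66, 12.3 and 6.27 FPKM in SM controls, so BQ788 replicate 1 was the highest and the other BQ788 libraries the lowest. NRARP, a feedback inhibitor, was at 91.5, 85.8 and 63.2 FPKM with BQ788, against 114.8, 113.2 and 87.7 FPKM in SM controls (log2 fold change -0.40, limma adjusted p = 0.223).

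Of 8 tested genes in the list of other ligands and related proteins, 0 passed in limma or limma voom. A limma unadjusted p under 0.05 was found for 4 (50%), all lower, against 22.7% of all genes tested (11.9% lower). EGFL7, a secreted Notch-binding protein of vessels, was at 18.8, 19.0 and 16.3 FPKM with BQ788, against 21.4, 25.4 and 22.4 FPKM in SM controls (limma adjusted p = 0.0994). CNTN1, a contactin reported as a Notch ligand in rodent glia, was at 3.62 ± 0.496 FPKM with BQ788 and 5.25 ± 0.686 FPKM in SM controls (limma adjusted p = 0.101). DNER, a neuronal EGF-repeat protein, was more abundant than any of the 9 members, at 135.4, 120.6 and 114.0 FPKM with BQ788, against 151.4, 144.1 and 127.5 FPKM in SM controls, and the groups overlapped.

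The last list held 9 tested genes, named here as proneural and hair cell factors. All 9 log2 fold changes were below 0 with a median of -0.36, against 5510 of 11857 below 0 over all genes. ATOH1, POU4F3, GFI1, MYO7A, ESPN and OTOF are also among the hair cell markers above, so the list is not separate from that lower sum. SOX10 is also among the Schwann cell and neuron markers. Of the 9, 1 passed in limma (11.1%, against 2.99% of all genes tested), and 2 passed in limma voom. A limma unadjusted p under 0.05 was found for 6 (66.7%), against 22.7% of all genes tested. NHLH1, a transcription factor of nascent hair cells and neurons, fell to 7.29, 6.18 and 6.42 FPKM with BQ788, against 12.5, 10.4 and 13.8 FPKM in SM controls (log2 fold change -0.79, limma adjusted p = 0.0327, and 0.0571 with no filter on low genes). ATOH1, the bHLH factor at the head of the hair cell programme, stood at 176.4, 150.6 and 134.3 FPKM with BQ788, against 158.0, 161.7 and 163.1 FPKM in SM controls, and the groups overlapped.

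**Figure D5:**
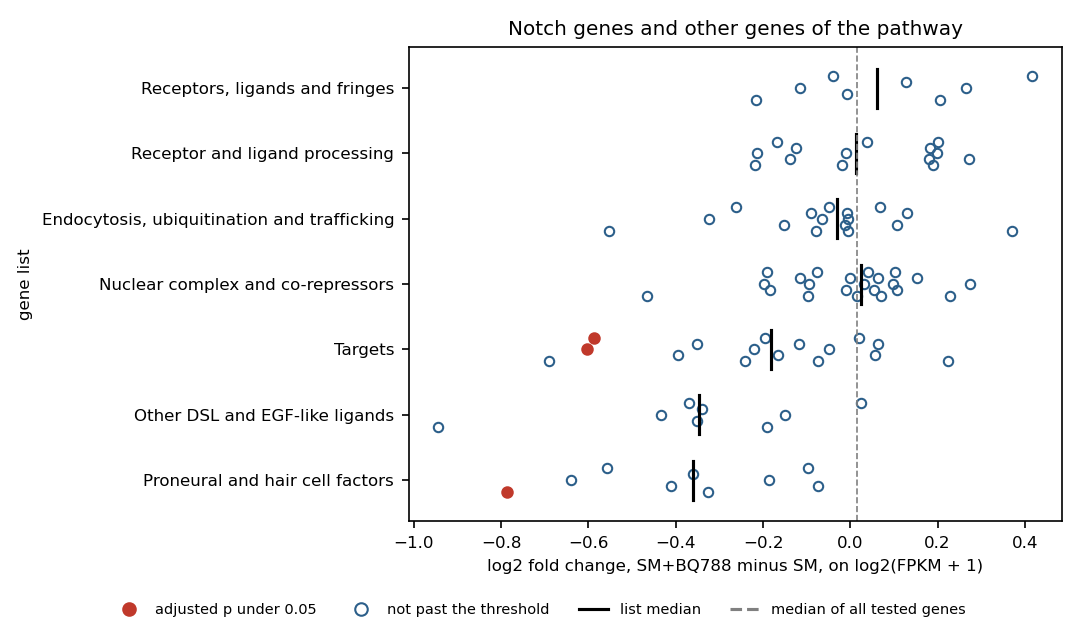
Log2 fold change of log2(FPKM + 1) values (x axis, BQ788 libraries minus controls) of the 8 tested receptor, ligand and fringe genes and of each tested gene in 6 further lists (y axis). Filled red points passed a limma adjusted p of 0.05, open points did not, black bars are list medians and the dashed line is the median of all tested genes, 0.02. The filled points are ID1 and ID3 among targets and NHLH1 among proneural genes, and no receptor, ligand or fringe gene is filled.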

How the data were processed

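The authors deposited FPKM per gene for each of the 6 libraries, with gene lengths and GRCg7b coordinates. The submitters' processing notes name fastp and the build GRCg7b, while aligner, counter and strand setting were not given in the sources used here. The product of FPKM and gene length moved in whole steps in each library, within 0.01 of a read, which gave recovered reads. The FPKM scale implied library sizes 0.948 to 1.06 times their sums. Chromosome numbers came from the GRCg7b annotation by gene ID, and start and end were the same in both tables for all 9 genes.

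limma 3.58.1 (R 4.3.3) was run on log2(FPKM + 1) for genes averaging 1 FPKM or more, with group as the only term and eBayes with trend. Tests were two-sided, with p-values adjusted by Benjamini-Hochberg over all genes tested and read at 0.05. The step was tested on simulated data. SDs are between libraries, and counting errors and Poisson intervals cover counting error only, since reads carried no molecular identifiers. MFNG had the fewest reads of the members, 14 to 30 per library.

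The 9 members, the 6 pathway lists and the 9 marker lists were chosen with earlier results of these data known. All 9 members are named with values in every library. From each pathway list the genes past the threshold are named, or otherwise the 2 with the smallest p, and for each member the 3 genes most like it by Pearson r were listed, of which those of LFNG, JAG1 and NOTCH2 are printed. ADAM10, MIB1, RBPJ, HEY1, HES5, NRARP, DNER, ATOH1, KDR, PECAM1, the marker genes named as past the threshold and the within-library ratios were chosen after their values were seen. So were the printed correlations between members.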

Additional observations from a re-analysis of the deposited data

How the results depend on the processing

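Members were called under a filter at 5 FPKM (1 member, LFNG) and on leaving out BQ788 replicate 1 (2 members, LFNG and JAG1), and under no other alternative run; over the leave-one-out fits the number of members called ran from 0 to 2. The count over all genes was 68 with no filter, 220 with plain totals of recovered reads and 749 with the replicate number as a block, against 355, and it ran from 1 to 1311 when 1 library was left out. The count of other pathway genes was 1 with no filter and 12 with the replicate block, against 3, and ran from 0 to 8 when 1 library was left out. Leaving out replicate 1 of both groups, chosen after seeing the data because mesenchymal markers were high there, gave 1 call over all genes, 0 among members and 0 among other pathway genes. DLL4 changed sign to 0.033 under quantile normalization and ran from -0.187 to 0.093 when 1 library was left out. JAG2 ran from -0.068 to 0.0028 when 1 library was left out and was 0.011 without replicate 1 of both groups. With the replicate block DTX3L, RAB11A and TLE3 also passed. The other 6 tested members kept their direction under all alternatives run. Same-numbered libraries of the groups deviated together unevenly (r = 0.50, 0.07 and 0.57 for numbers 1, 2 and 3 over all genes tested). Differently numbered libraries had r from -0.53 (BQ788 replicate 1 with SM control replicate 3) to 0.13 (BQ788 replicate 2 with SM control replicate 3). Numbers 1 and 3 went together more than any differently numbered libraries, and number 2 did not. The labels do not say that equal numbers are pairs, and the main fit leaves the number out. Whether same-numbered libraries share an effect was not tested. With the replicate block 0 members passed. The causes of these shifts were not tested. MFNG rests on few reads, whereas DLL4 with BQ788 varied by 37.9% between libraries against a counting error of 9.41%.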
